A study of Mus musculus with 10 samples.

Results

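The DEAD/DEAH-box RNA helicases are described here as 49 protein-coding genes of the 55359 genes in the table, chosen by symbol. Every gene named Ddx or Dhx followed by a number was taken, 34 Ddx and 15 Dhx genes, except for the RIG-I-like receptors Dhx58 and Rigi and the sex-linked pair Ddx3x and Ddx3y. Lineage-negative (Lin-) bone marrow cells, the immature fraction left after a depletion kit removes cells with mature lineage markers, were measured by RNA-seq in 10 libraries, 5 of Dhx9f/f (WT) and 5 of Dhx9f/f;MX1 (cKO) genotype. Both groups carry the floxed Dhx9 allele, and the cKO mice also carry Cre under the interferon-inducible Mx1 promoter, which poly(I:C) switches on. That promoter responds in many cell types besides blood cells, and poly(I:C) itself induces interferon. By the methods, mice with Mx1 Cre were given repeated poly(I:C) injections. Analysis was a week after the first injection, unless the study says otherwise. Whether the sequenced WT mice received poly(I:C), which exons are floxed, and the age and sex of each sequenced mouse are not given in the sources used here, while the methods describe mouse sex as randomized and replicates, in general, as individual mice.

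These helicases use ATP to open short RNA duplexes or to strip proteins from RNA, and they act at nearly every step in the life of an RNA. DEAD-box members clamp onto RNA and pry it apart locally, whereas most DEAH-box members travel along a strand. Blood progenitors depend on several of them, because dividing progenitors make many ribosomes and splice many transcripts, and inherited changes in DDX41 predispose to myeloid leukaemia. Dhx9, the gene targeted here, encodes a DEAH-box helicase that unwinds double-stranded RNA, R-loops and inverted-repeat structures and bridges transcription cofactors to RNA polymerase II.

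The family takes its name from 4 consecutive residues in the ATP-binding core, Asp-Glu-Ala-Asp in DEAD-box and Asp-Glu-Ala-His in DEAH-box proteins. The coding DNA of these 4 codons is shown for the genes on which the results turn, so that both classes and the variants of the third position can be seen. Each line gives 30 bases of the coding strand of the GRCm39 reference, with the 4 codons of the box in capitals.
Dhx9: gttattgtgGATGAAATTCATgaaagagat
Dhx15: ataattcttGATGAGGCCCATgaaagaaca
Dhx57: atcattgttGATGAAGTTCATgagaggaca
Ddx5: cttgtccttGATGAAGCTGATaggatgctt
Ddx17: cttgtgttgGATGAGGCTGACcggatgctt
Ddx18: ctggttattGATGAGGCTGACcgtatcttg
Ddx21: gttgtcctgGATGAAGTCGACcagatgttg
Ddx39a: tttgtgctaGATGAATGTGACaagatgctg
Ddx39b: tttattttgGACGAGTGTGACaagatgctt
These windows lie within single coding exons. They are chr1:153344626-153344655 on the minus strand for Dhx9, chr5:52328829-52328858 minus for Dhx15, chr17:80574952-80574981 minus for Dhx57, chr11:106676010-106676039 minus for Ddx5, chr15:79423067-79423096 minus for Ddx17, chr1:121489059-121489088 minus for Ddx18, chr10:62427651-62427680 minus for Ddx21, chr8:84447730-84447759 plus for Ddx39a and chr17:35466057-35466086 plus for Ddx39b. A box was found in the canonical transcript of 46 of the 49 members, and none was found at the expected spacing in Ddx11, Ddx60 and Dhx32. In all 32 Ddx genes with a box the fourth codon was one for aspartate, and in all 14 such Dhx genes it was one for histidine. The third codon encoded alanine in 34 members. Dhx9 shared an isoleucine codon there with Dhx36, the G-quadruplex helicase, whereas Dhx57, Dhx29, Dhx30, Dhx34, Ddx21, Ddx28 and Ddx50 had a valine codon, Ddx39a and Ddx39b a cysteine codon and Ddx52 a serine codon.

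The libraries held about 13930000 to 30093000 fragments, as read from the steps of low FPKM values. The targeted gene, described next, was higher in the libraries labelled cKO, so groups are called by their labels. Every direction below, written as a rise or fall in cKO, is that of the labels and would turn if they were exchanged, which was not tested. Marker genes of several blood lineages were present in both groups and differed between them. Of 15 erythroid markers 14 were called higher in cKO (summed FPKM 1181 to 2532 in WT and 3261 to 4847 in cKO), and of 12 monocyte and dendritic markers 11 were called lower (758 to 1337 and 4.44 to 209). Lower calls were also made for 5 of 12 neutrophil markers (2742 to 3728 and 148 to 2604), 10 of 10 megakaryocyte markers (308 to 1403 and 89.4 to 205), 7 of 8 mast cell and basophil markers (693 to 1375 and 91.4 to 591), 3 of 6 tested B-lymphoid markers (26.7 to 34.7 and 0.87 to 8.03) and 5 of 8 T and NK markers (81.0 to 105 and 7.52 to 29.6). By the same rule, an adjusted p under 0.05, 16.7% of all genes tested were called higher and 28.3% lower. The neutrophil list was split. Its uncalled members Camp, Ltf and Ngp had positive log2 fold changes (0.98, 1.39 and 1.43) and were highest in cKO library 1. Uncalled Ly6g, Mmp8, S100a8 and S100a9 had negative ones. Of these, S100a8 and S100a9 were also highest in cKO library 1, at 442.9 and 894.75 FPKM. Their highest WT values were 113.81 and 93.11 FPKM. Among 10 stem cell markers 9 were lower and 1 higher (84.0 to 111 and 34.0 to 52.8), and among 8 stromal and endothelial markers 6 were lower and 1 higher (22.9 to 33.1 and 5.78 to 10.8). No marker in the table was at 0 in every library of a group. Xist, the RNA of the inactive X chromosome, was at 99.2 to 128 FPKM in WT libraries 3, 4 and 5 and at most at 0.09 FPKM in the other libraries, cKO ones included. By Xist, WT libraries 3, 4 and 5 look female and the others male, so sex was unbalanced between the groups. The contrast of WT and cKO is thus partly one of sex, and fits with Xist as a covariate or limit are given below. In bulk RNA, fewer cells of a type and less RNA per cell cannot be told apart. The part of the marker differences in the results below was not tested.

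Dhx9 (ENSMUSG00000042699, GRCm39 chr1:153331504-153363457, minus strand) measured 68.96, 72.42, 72.18, 69.55 and 65.43 FPKM in the WT replicates 1 to 5. In cKO replicates 1 to 5 it measured 130.82, 148.8, 131.25, 156.49 and 131.98 FPKM. Every library labelled cKO was above every WT library, and each group was tight, with means of 69.7 ± 2.84 and 140 ± 11.98 FPKM (SD, n = 5). The log2 fold change was 1.0005 with a standard error of 0.0654 (limma adjusted p = 1.39e-05), and the two-sided exact permutation test over the 10 libraries gave p = 0.00794, the smallest that 5 against 5 allow. About 10698 to 24683 fragments per library lay behind these values, so counting error is small beside the spread between libraries. The value covers the whole gene, so it does not show whether the floxed exons were present in the RNA. Dhx9 made up 4.74 ± 0.0863% of the summed FPKM of the 49 members in WT and 7.91 ± 0.614% in cKO. It ranked 5th among them in every WT library and between 2nd and 4th in the cKO libraries.

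**Figure D1:**
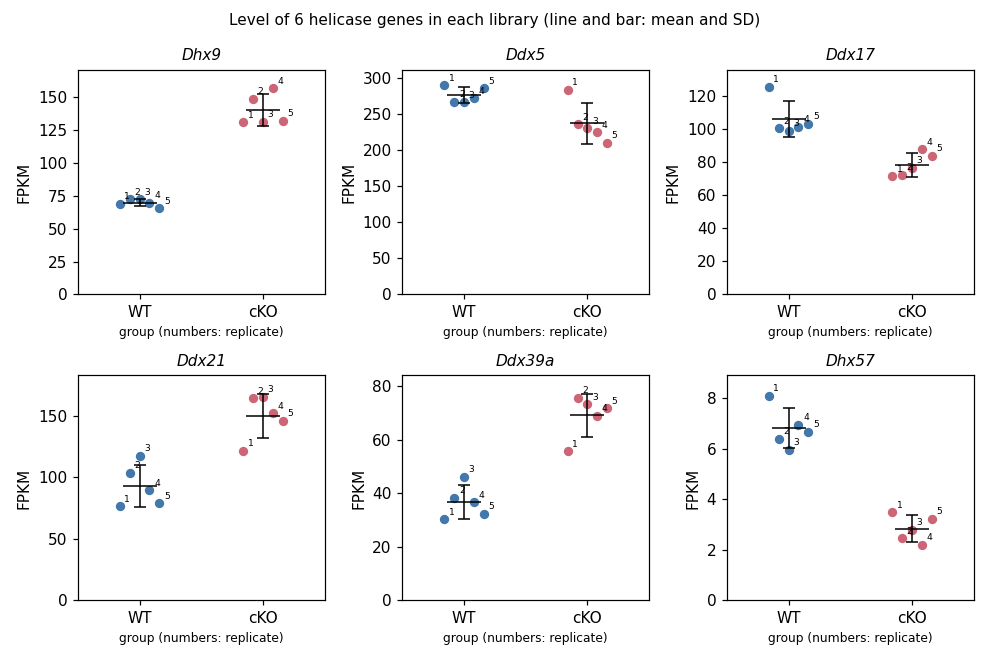
FPKM (vertical axis, from 0) of Dhx9, Ddx5, Ddx17, Ddx21, Ddx39a and Dhx57 in the 5 WT and 5 cKO libraries; numbers give the replicate, and the horizontal line and bar the mean and SD. Dhx9 in cKO sat at 130.82 to 156.49 FPKM, above all WT libraries, while Dhx57 sat at 2.19 to 3.48 FPKM against 5.97 to 8.11 in WT.

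The family as a whole was abundant, and more of its members rose than fell. Of the 49 genes 47 were tested, since Ddx25 and Ddx43 averaged less than 0.1 FPKM over the libraries. At an adjusted p under 0.05, 23 of the 47 rose in cKO and 4 fell. Over all 18742 genes tested, 16.7% were called higher and 28.3% lower by the same rule. The members' median log2 fold change was 0.21, against -0.11 for all genes, and 35 of the 47 had a positive value. In 18 members all 5 cKO libraries were above all 5 WT libraries, which 10.6% of all genes showed, and in Ddx17 and Dhx57 they were all below, which 21.6% showed. Since helicases are expressed in most cells, the same test was also run on the genes averaging 5 FPKM or more, a limit chosen after the data were seen. Of the 43 members in that set 22 rose (51.2%) and 3 fell (6.98%), whereas of 8035 genes 28.1% rose and 27.4% fell. These rises were moderate: Dhx9 alone passed the rule that also asks for a 2-fold change upward, which 4.60% of all genes passed, and Dhx57 alone passed it downward, which 16.8% passed. Dhx9 stood only just over that limit and fell under it in several alternatives, as given in the closing section. Together the members summed to 1406 to 1554 FPKM in WT and 1697 to 1825 FPKM in cKO, or 1341 to 1482 and 1566 to 1685 FPKM without Dhx9.

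**Figure D2:**
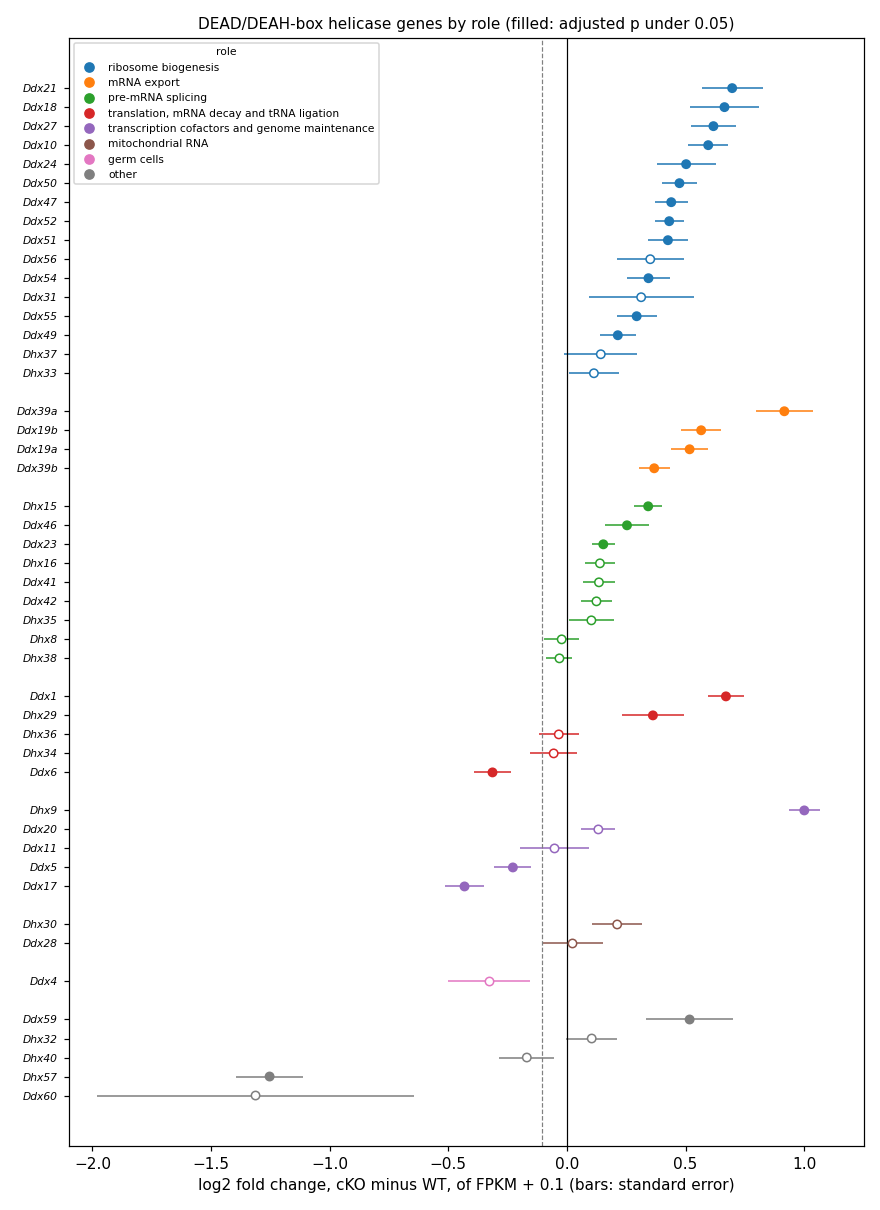
Log2 fold change of FPKM + 0.1, cKO minus WT (horizontal axis), of the 47 tested members, grouped and coloured by role; bars are standard errors, filled points have an adjusted p under 0.05 and the dashed line is the median of all genes, -0.11. All 16 ribosome biogenesis and all 4 mRNA export genes lie to the right of 0.

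The calls were also counted by class, as read from the fourth codon of the box. Among the 30 tested genes with an aspartate codon 20 rose (66.7%) and 3 fell, with a median log2 fold change of 0.36. Of the 14 with a histidine codon 3 rose (Dhx9, Dhx15 and Dhx29, or 21.4%) and 1 fell (Dhx57), with a median of 0.11, and Dhx29 was not called in 13 of 22 alternatives. The shares of all genes called higher were 16.7%, and 28.1% at 5 FPKM or more. Outside ribosome biogenesis, the role described next, 8 of 16 aspartate-codon genes and 3 of 12 histidine-codon genes rose, and inside it 12 of 14 and 0 of 2. The difference between the classes was not tested.

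The ribosome biogenesis helicases, which remodel pre-ribosomal RNA in the nucleolus, formed the largest role group. All 16 had a positive log2 fold change, with a median of 0.43, and 12 of them rose (75.0%). Of all genes 16.7% were called higher, and 28.1% of those at 5 FPKM or more. Those that did not pass the test were Ddx31, Ddx56, Dhx33 and Dhx37, with log2 fold changes of 0.31, 0.35, 0.11 and 0.14. In 9 of the 16 every cKO library was above every WT library, which 10.6% of all genes showed. Ddx21, a nucleolar helicase that couples rRNA transcription with rRNA processing, was at 76.39, 103.61, 117.45, 89.45 and 79.01 FPKM in WT and at 121.43, 164.39, 165.74, 152.23 and 146.08 FPKM in cKO. Its highest WT library, 3, came near its lowest cKO library, 1, without overlap, and the log2 fold change was 0.70 (SE 0.129, limma adjusted p = 0.00136). Its neighbour and paralogue Ddx50 rose less, from 9.97 ± 0.707 to 13.9 ± 0.830 FPKM (log2 fold change 0.47). Ddx18, another nucleolar helicase, was at 36.84 to 53.79 FPKM in WT and 51.33 to 83.51 FPKM in cKO, where library 1 alone overlapped with WT (log2 fold change 0.66). Ddx27, which acts on the large-subunit rRNA, rose by 0.62 and Ddx10, which acts on the small subunit, by 0.60, both without overlap. The remaining calls were Ddx24 (0.50), Ddx47 (0.44), Ddx52 (0.43), Ddx51 (0.43), Ddx54 (0.34), Ddx55 (0.29) and Ddx49 (0.21), all log2 fold changes, of which Ddx49 was not called in 14 of 22 alternatives. Genes on the opposite strand overlap 40.3% of the annotated exon sequence of Ddx49, 29.5% of that of Ddx55 and 23.2% of that of Ddx54, so these are less certain.

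The same libraries stood at the ends of a group for many of these genes. WT library 3 was the highest of the WT libraries for 11 of the 16 genes, and cKO library 1 was the lowest of the cKO libraries for 12. Their summed FPKM was 328, 398, 431, 361 and 338 in WT libraries 1 to 5 and 449, 573, 598, 530 and 531 in cKO libraries 1 to 5. The summed erythroid markers were 1552, 1443, 2532, 1360 and 1181 in those WT libraries, and 4847, 4651, 4139, 4656 and 3261 FPKM in the cKO libraries. WT library 3 was thus highest of its group in both sums, whereas cKO library 1 was highest of its group for the erythroid markers and lowest for the helicases. The shares of all genes called higher in the following fits are not given here. The counts thus do not show whether a change is particular to these genes. Without cKO library 1, 15 of the 16 genes rose, with a median log2 fold change of 0.46. With the libraries low in Xist alone, WT 1 and 2 against the 5 cKO, 8 of the 16 rose, with a median of 0.41. With Xist as a covariate over all libraries 10 of the 16 rose, with a median of 0.41.

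**Figure D3:**
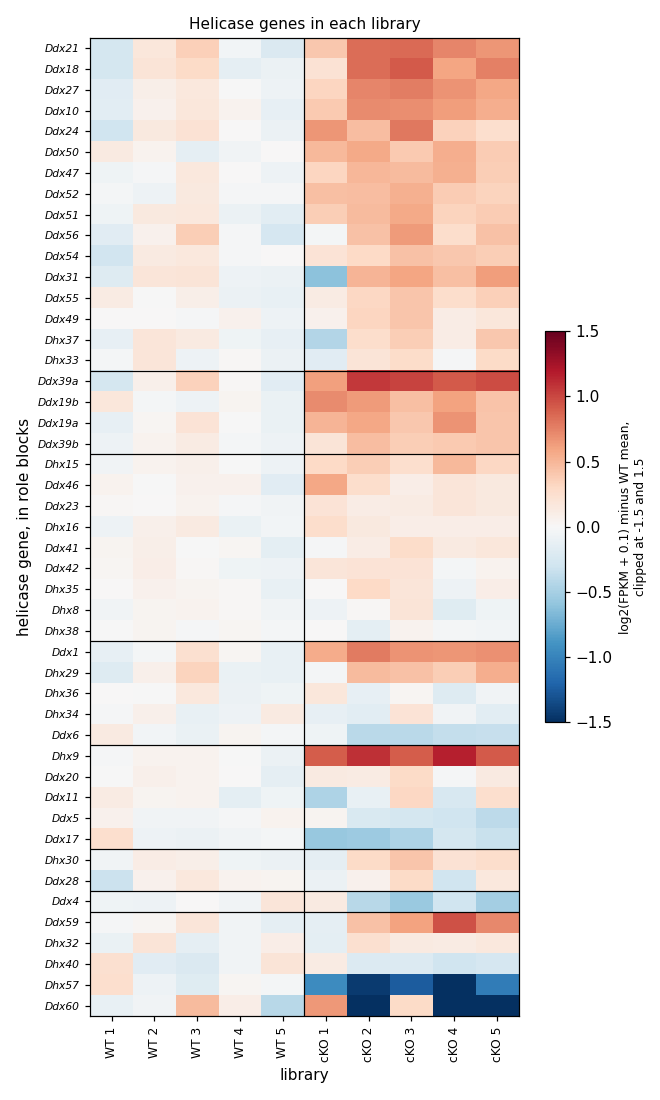
Log2(FPKM + 0.1) minus the WT mean (colour, clipped at -1.5 and 1.5) of the 47 tested members in each library, in blocks by role in the order ribosome biogenesis, mRNA export, splicing, translation and decay, transcription cofactors, mitochondrial RNA, germ cells and other. In the uppermost block cKO library 1 is paler than the other cKO libraries, being the lowest of them for 12 of 16 genes.

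All 4 mRNA export helicases rose, each without overlap between groups. Of all genes 16.7% were called higher, and 28.1% of those at 5 FPKM or more. Every cKO library was above every WT library in 10.6% of all genes. Ddx39b, known as UAP56, loads the TREX export complex onto spliced mRNA, and Ddx39a is its close paralogue. Ddx39a was at 30.21, 38.38, 46.16, 36.63 and 32.23 FPKM in WT and at 55.69, 75.74, 73.14, 68.81 and 71.74 FPKM in cKO. Every cKO library was above the highest WT library, again number 3, and the log2 fold change was 0.92 (SE 0.121, limma adjusted p = 0.000213), the second largest rise among the members. Ddx39b, the more abundant of both, was at 104 ± 6.34 FPKM in WT and 134 ± 9.13 FPKM in cKO (log2 fold change 0.37). Ddx39a also rose relative to Ddx39b, with a ratio of their FPKM of 0.307 to 0.407 in WT and 0.467 to 0.544 in cKO, which did not overlap. Part of the annotated exon sequence of Ddx39a, 36.7%, is overlapped by other genes on the opposite strand, among them the adhesion receptor gene Adgre5, and the strand setting of the counting is not given in the sources used here. Adgre5 itself was at 22.4 ± 2.30 and 24.5 ± 6.41 FPKM (SD, n = 5), with a log2 fold change of 0.10 that did not pass the test. Ddx19a and Ddx19b, which release proteins from mRNA at the nuclear pore, rose by 0.52 and 0.57. These neighbours lie 5337 bases apart on chromosome 8 and their coding sequences are 93.6% identical, so the split of reads between them is uncertain.

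**Figure D4:**
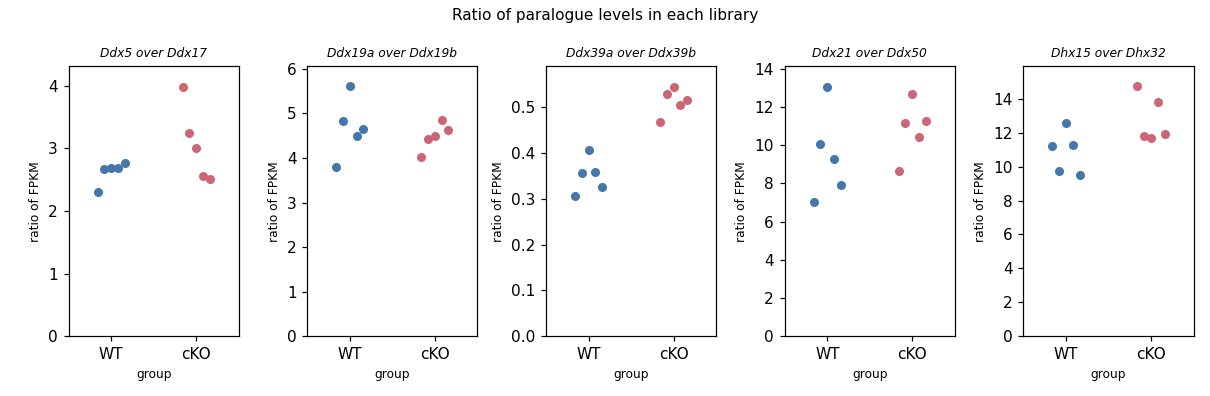
Ratio of FPKM (vertical axis, from 0) within 5 pairs of paralogues in the 5 WT and 5 cKO libraries, 1 point per library. The ratio of Ddx39a to Ddx39b was 0.307 to 0.407 in WT and 0.467 to 0.544 in cKO, and in the other pairs the groups overlap.

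In the other pairs of paralogues the ratios overlapped between groups. The ratio of Ddx5 to Ddx17 was 2.31 to 2.77 in WT and 2.51 to 3.98 in cKO, that of Ddx19a to Ddx19b 3.804 to 5.62 and 4.02 to 4.85, that of Ddx21 to Ddx50 7.01 to 13.0 and 8.66 to 12.7, and that of Dhx15 to Dhx32 9.53 to 12.6 and 11.7 to 14.7. Coding sequences of these pairs were 70.2% identical for Ddx5 and Ddx17, 81.2% for Ddx39a and Ddx39b, 68.2% for Ddx21 and Ddx50 and 55.5% for Dhx15 and Dhx32, over the aligned bases. The ratios are given as values without a test.

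Of the 9 splicing helicases 3 rose (33.3%), with a median log2 fold change of 0.13 over all 9. Of all genes 16.7% were called higher, and 28.1% of those at 5 FPKM or more. All 9 averaged above that limit, so their share was close to the latter. With median-ratio scaling 6 rose, with a median of 0.24, and 1 rose with an equal sum per library, with no trend, in both Xist settings, or without WT library 4 or 5 or cKO library 4. The shares of all genes called higher in those fits are not given here. Dhx15, which takes the spliceosome apart after splicing, was at 51.95, 55.82, 57.06, 53.87 and 51.19 FPKM in WT and at 66.2, 69.87, 64.4, 75.31 and 66.77 FPKM in cKO, with no overlap (log2 fold change 0.34, SE 0.0584, limma adjusted p = 0.000840). Ddx46, which helps the U2 particle bind the branch point, rose by 0.25, and Ddx23 of the U5 particle by 0.15, both without overlap, but these calls were lost in 13 and 9 of 22 alternatives. The spread of Ddx23 was narrow, with 30.1 ± 0.824 FPKM in WT and 33.5 ± 0.967 FPKM in cKO. Not called were Dhx16, Ddx41, Ddx42, Dhx35, Dhx8 and Dhx38, with log2 fold changes of -0.03 to 0.14. Summed over the 9 genes the level was 249 to 274 FPKM in WT and 291 to 314 FPKM in cKO.

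**Figure D5:**
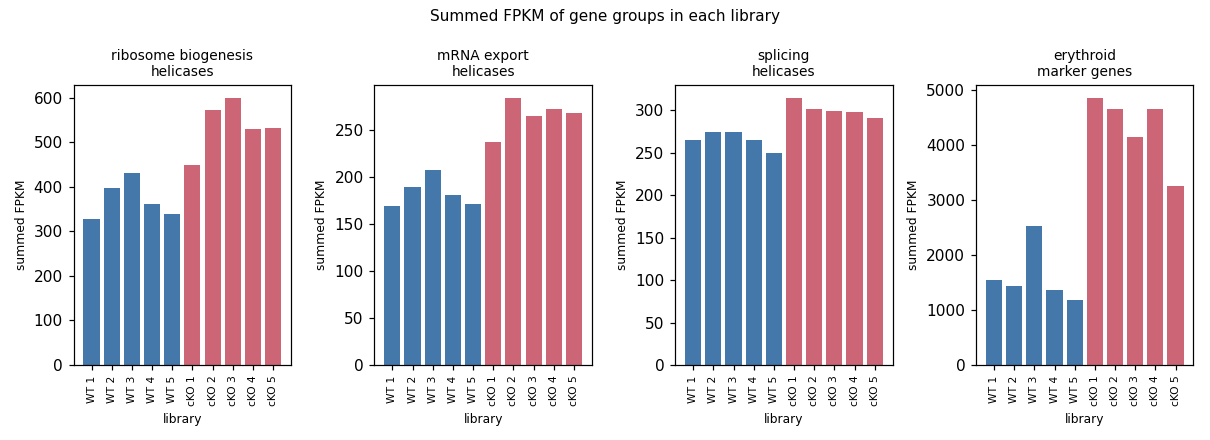
Summed FPKM (vertical axes, from 0, each panel on its own scale) of the ribosome biogenesis, mRNA export and splicing helicases and of 15 erythroid marker genes in each library. In each panel the 5 cKO libraries lie above the 5 WT libraries and WT library 3 is the highest of WT, whereas cKO library 1 is the lowest of cKO in the first and second panels and the highest in the others.

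Helicases of translation, decay and tRNA ligation moved in both directions. Ddx1, a subunit of the tRNA ligase complex, was at 34.3, 36.4, 43.81, 37.98 and 34.38 FPKM in WT and at 54.7, 63.9, 59.35, 58.93 and 59.9 FPKM in cKO. These groups did not overlap, and the log2 fold change was 0.67 (SE 0.0755, limma adjusted p = 0.000111). Dhx29, which helps ribosomes scan structured leaders, rose by 0.36, with cKO library 1 inside the WT range, and was not called in 13 of 22 alternatives. Ddx6, which represses mRNAs and hands them to decapping, fell by 0.31 on the log2 scale, from 61.6 ± 3.84 to 49.7 ± 5.31 FPKM, and its cKO library 1 (59.07 FPKM) was again within the WT range. Dhx36 and Dhx34, a factor of nonsense-mediated decay, had log2 fold changes of -0.03 and -0.06 and did not pass the test.

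Among the transcription cofactors Dhx9 rose while the abundant pair Ddx5 and Ddx17 fell. Ddx17, also called p72, was at 125.47, 100.36, 99.08, 101.45 and 103.29 FPKM in WT and at 71.34, 72.51, 76.67, 87.85 and 83.9 FPKM in cKO. All cKO libraries were below all WT libraries, with a log2 fold change of -0.43 (SE 0.0841, limma adjusted p = 0.00183). Ddx5, also called p68, was at 290, 267.31, 266.44, 272.12 and 285.99 FPKM in WT and at 284.07, 235.67, 230.17, 224.96 and 210.44 FPKM in cKO. Here cKO library 1 lay within the WT range and the other cKO libraries below it, and the log2 fold change was -0.23 (SE 0.0785, limma adjusted p = 0.0349). That call was lost in 13 of 22 alternatives, among them a median-ratio scaling of the libraries (adjusted p = 0.260). Ddx20, a partner of the SMN complex, and Ddx11, a DNA helicase of sister chromatid cohesion, had log2 fold changes of 0.13 and -0.05 and were not called.

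The order of the levels shifted with these changes. FPKM is a level per length, so genes can be compared within a group. Ddx5 was the most abundant member in both groups, with 276 ± 10.9 FPKM in WT and 237 ± 27.9 FPKM in cKO. In WT it was followed by Ddx17 (106 ± 11.03), Ddx39b (104 ± 6.34) and Ddx21 (93.2 ± 17.3), which did not differ beyond their spread, and then by Dhx9, Ddx6 and Dhx15. In cKO it was followed by Ddx21 (150 ± 18.0), Dhx9 (140 ± 11.98) and Ddx39b (134 ± 9.13), whose ranges overlap, and Ddx17 came 5th with 78.5 ± 7.19 FPKM. The spread between libraries was small for most members, with a median coefficient of variation of 7.60% in WT and 10.4% in cKO.

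Dhx57, a DEAH-box gene with a valine codon in its box, showed the largest called fall. It was at 8.11, 6.41, 5.97, 6.95 and 6.67 FPKM in WT and at 3.48, 2.45, 2.79, 2.19 and 3.23 FPKM in cKO. No library overlapped, and the log2 fold change was -1.25 (SE 0.143, limma adjusted p = 0.000114). About 243 to 1487 fragments per library lay behind it. Of its annotated exon sequence 9.80% is overlapped by genes on the opposite strand, with Gemin6 and Morn2 among them, and these had log2 fold changes of 0.27 each that did not pass the test. Ddx60, an interferon-inducible antiviral cofactor named here after its values were seen, had the lowest fold change of the members but was not called. It was at 1.22, 1.27, 1.88, 1.42 and 0.97 FPKM in WT and at 2.14, 0.16, 1.64, 0.09 and 0.22 FPKM in cKO. The cKO libraries split widely, with numbers 1 and 3 inside or above the WT range and the others far below it, and the log2 fold change of -1.31 had an SE of 0.668 (limma adjusted p = 0.134). Without cKO library 1 it was -1.80, with an adjusted p of 0.0254.

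Few calls were made in the remaining roles. Ddx59 rose by 0.52 on the log2 scale, from 3.71 ± 0.322 to 5.50 ± 1.45 FPKM, with overlap between groups, and was not called in 13 of 22 alternatives. Dhx32 and Dhx40 had log2 fold changes of 0.10 and -0.17 and were not called. Neither were the mitochondrial members Dhx30 (0.21), which supports mitochondrial translation, and Ddx28 (0.02), which assembles the mitochondrial ribosome. Of the germ cell members Ddx4, or Vasa, the classical germ cell marker, was at 0.99 to 1.72 FPKM over all libraries and was not called. Ddx25 and Ddx43 stayed at 0.01 to 0.18 and 0.02 to 0.18 FPKM, about 1 to 21 and 2 to 14 fragments per library, and no difference was detectable at this depth.

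Other helicases and cofactors were counted by the same rule, which called 16.7% of all genes higher and 28.3% lower. Among genes averaging 5 FPKM or more, 28.1% were called higher and 27.4% lower. Of 18 tested RNA helicases of other families 6 rose (33.3%) and 3 fell (16.7%), with a median log2 fold change of 0.09. Supv3l1, the helicase of mitochondrial RNA decay, rose by 0.82 and Snrnp200, which unwinds U4/U6 in the spliceosome, by 0.43, while Znfx1 had -0.58. Of 20 G-patch proteins, a class with some members that switch on DEAH-box helicases such as DHX15, 4 rose (20%) and 2 fell (10%), with a median of 0.02. Pinx1, a nucleolar G-patch protein and telomerase inhibitor, rose from 9.11 ± 1.11 to 18.0 ± 2.97 FPKM (log2 fold change 0.97), and Rbm17, a splicing factor, by 0.47, whereas Gpatch11 and Rbm6 had -0.47 and -0.40. Among 16 activators and other cofactors of DEAD-box helicases 6 rose (37.5%) and 6 fell (37.5%). Eif4g2 and Eif4g1, scaffolds that bind the DEAD-box protein eIF4A, rose by 0.56 and 0.43. Pdcd4, an eIF4A inhibitor, had -0.75 and Patl1, a decapping factor that binds DDX6, -0.60. Of 15 partners of DHX9 3 rose (20%) and 2 fell (13.3%), with a median of 0.02. The shares called higher among G-patch proteins and DHX9 partners were close to that of all genes. Smn1, of snRNP assembly, rose by 0.43 and Xrn2, a nuclear exonuclease, by 0.34, while Top2a, the DNA topoisomerase of dividing cells, had -0.45 and Ep300, a histone acetyltransferase, -0.37.

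The sequence upstream of the members' starts was searched for 5 short motifs, in the 250 bases before the annotated start on both strands of GRCm39. The E-box CACGTG was present in 4 of 47 tested members and in 7.66% of 12877 tested protein-coding genes, and in none of the 16 ribosome biogenesis genes. The ETS-type motif CCGGAAG was present in 5 members, Dhx9, Ddx10, Ddx17, Ddx39b and Dhx35, and in 9.93% of all. CCAAT was in 17 members, among them 9 of the 16 ribosome biogenesis genes, and in 36.3% of all. GGGCGG was in 23 members and 47.7% of all, and AAGATGGC in 1 member and 1.82% of all. None of the 5 motifs holds another. Over all 47 tested members the shares, 8.51% for CACGTG, 10.6% for CCGGAAG, 36.2% for CCAAT and 48.9% for GGGCGG, were close to those of all promoters. The counts within ribosome biogenesis were not tested.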

How the data were processed

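RNA of Lin- bone marrow cells was sequenced in 5 WT (Dhx9f/f) and 5 cKO (Dhx9f/f;MX1) libraries. The authors removed adapters and low-quality reads and aligned the rest to GRCm39 with HISAT2 (2.0.1). Their processing notes also name cutadapt (1.9.1) and HTSeq (0.6.1), and the deposited values are FPKM of each gene in each library. The annotation and strand setting behind the FPKM are not given in the sources used here. FPKM are not counts, so limma 3.58.1 (trend, two-sided, R 4.3.3) was fitted to log2(FPKM + 0.1). It covered 18742 genes that averaged 0.1 FPKM or more, with Benjamini-Hochberg adjustment over all of them, and fold changes of low genes are understated. A call needed an adjusted p below 0.05, with or without a change of 2-fold or more. The script was tested on simulated data.

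The members, roles and gene lists, taken from general knowledge, and the tests were chosen with earlier results of these data known. Named genes were Dhx9, the 8 most abundant members, members called with a 2-fold change, the 8 largest rises and 8 largest falls among calls, paralogue pairs, and 2 rises and 2 falls of each other list, of which 1 gene is not reported here. Role groups are given with the remaining members as counts and values.

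Fragments per library were estimated from genes of 200 to 1000 bp with 1 transcript, where 96.1 to 96.7% of values up to 20 fragments lay within 0.2 of a whole number (40% by chance). Within groups no pair of libraries was alike within sampling noise (chi-square per degree of freedom at least 4.22). The labels only number the libraries, and the study's methods describe replicates, in general, as individual mice. Boxes and promoters come from GENCODE vM39 canonical transcripts and GRCm39, and identity from Biopython 1.88 global alignments. Alternatives were the pseudocount (0.01, 1), the filter (none, 1 and, added later, 5 FPKM), 3 scalings, no trend, replicate numbers as blocks, Xist as a covariate or limit, and leaving out each library.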

Additional observations from a re-analysis of the deposited data

Results flagged for a closer look

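Of 38 groups of 5 libraries examined, 2 had 1 library far from the others, where chance gives about 1.9. Ddx17 was at 125.47 FPKM in WT library 1 and at 99.08 to 103.29 FPKM in the other WT libraries. Ddx6 was at 59.07 FPKM in cKO library 1 and at 46.39 to 48.34 FPKM in the other cKO libraries.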

How the results depend on the processing

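Dhx9 was called higher on adjusted p in all 22 alternatives, with log2 fold changes of 0.89 to 1.11, and the shift of all genes moved with the scaling, their median being -0.11 as deposited, -0.01 with median-ratio scaling and 0.10 with quantile normalization. Of the 23 members called higher, 15 were called in every alternative, 8 of them in ribosome biogenesis, and Ddx23, Ddx24, Ddx46, Ddx49, Ddx54, Ddx55, Ddx59 and Dhx29 were lost in some. With the 2-fold rule the number of members called higher (1) was 0 with a pseudocount of 1, 0 with an equal sum per library, 0 with quantile normalization, 2 with median-ratio scaling (Ddx39a in addition) and 0 to 2 with 1 library left out. It was 0 without WT library 1, 4 or 5 or without cKO library 2 or 4, each of which put Dhx9 under the limit, and 2 without WT library 3. With Xist as a covariate or limit the number stayed at 1, but the gene was Ddx39a and not Dhx9. Over all genes, the share called higher by that rule was 4.6% in the main fit, 1.9% with a pseudocount of 1 and 4.3% with an equal sum. It was 8.07% with quantile normalization, 5.37% with median-ratio scaling and 4.06 to 5.07% with 1 library left out. For Xist it was 3.4% with the covariate and 2.88% with the limit. The number called lower by that rule (1) was 0 with quantile normalization, 0 with a minimum of 5 FPKM, which leaves Dhx57 out, and 1 to 2 with 1 library left out, 2 without cKO library 1 (Ddx60 in addition). Of all genes 16.8% were called lower by it in the main fit and 12.3% with quantile normalization. The share was 9.23% with a minimum of 5 FPKM and 17.4% without cKO library 1. On adjusted p alone, 15 rose and 2 fell among libraries with Xist at or below 1 FPKM, which leaves 2 WT libraries. With Xist as a covariate 17 rose, and Ddx17, Ddx6 and Dhx57 fell. With median-ratio scaling 29 rose and 2 fell. With 1 library left out 18 to 28 rose and 3 to 6 fell, the highest numbers, 28 and 6, without cKO library 1. The shares of all genes called on adjusted p alone in these fits and with the replicate block are not given here. These counts thus do not show whether only the members moved. Ddx6 was lost with median-ratio scaling (adjusted p = 0.0514) and with the Xist limit (0.0568). The members' median log2 fold change (0.21) was 0.32 with median-ratio scaling, 0.29 with quantile normalization and 0.16 to 0.29 with 1 library left out. The share of Dhx9 in WT was 4.85% with quantile normalization, and 4.72 to 4.76% with 1 library left out. No named gene that was called changed direction. Medians that did turn positive were those of all genes (above, and 0.03 with a minimum of 5 FPKM) and of small roles near 0, that of translation, decay and tRNA ligation from -0.03 to 0.07 with median-ratio scaling and 0.20 with quantile normalization, or 0.0040 without WT library 3 and 0.0060 without cKO library 4, and that of transcription cofactors from -0.05 to 0.05 and 0.15, or 0.05 without cKO library 1. Ddx4, not called, turned from -0.33 to 0.19 with quantile normalization. The cause was not tested. Same-numbered libraries deviated together little (correlations of -0.01 to 0.12), so the numbers were not taken as pairs, and with the replicate block 21 members rose and 4 fell. Depth limits Ddx25 and Ddx43.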
